A study of Rattus norvegicus with 23 samples.

Results

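The genes described here are 10 components of the lysosome, measured in the CA3 field of the rat hippocampus: 6 cathepsins (Ctsz, Ctsh, Ctss, Ctsd, Ctsb and Ctsl), the cholesterol carrier Npc2, and the membrane proteins Lamp1, Lamp2 and Cd63. Every probe set whose only gene symbol in the platform annotation is one of these was taken, which gave 14 of the 31099 probe sets of the array and 10 of its 14217 genes with a single symbol. Of the 14 probe sets, 12 passed the filter on low values, which asked for 6 arrays or more at a log2 value of 4 or above, and each of the 10 genes kept at least 1 of them. The other 2, both of Lamp1 (1375629_at and 1398816_at), stayed at the lowest value GCRMA gave, 2.19, on all 23 arrays and were not tested.

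The study compared male Long-Evans rats by age and by performance in a water maze. Aged Impaired rats (n = 8), 24 to 26 months old, learned worse than the young range, Aged Unimpaired rats (n = 6), of the same age, performed within it, and Young rats (n = 9) were 6 months old. None of the groups received a treatment, and all rats were housed singly and killed after the behavioural tests. CA3 was microdissected, and RNA of each rat was hybridised to 1 Affymetrix GeneChip of the rat genome, so that the values describe whole tissue with its neurons, glia and vessels. Impairment was assigned from a maze index and not from pathology, which limits the group as a model of any disease, and the aged rats had been bought as adults and kept in the vivarium until they were tested.

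The lysosome is the acidic compartment in which cells break down proteins, lipids and sugars taken up from outside or delivered by autophagy. Cathepsins are its main proteases. Most are cysteine proteases and Ctsd is an aspartic protease, all are made as inactive precursors, and they work best at the low pH that the vacuolar proton pump maintains. Lamp1 and Lamp2 coat the inner face of the lysosomal membrane with sugar chains, and Npc2 hands cholesterol to the membrane transporter Npc1. In brain, microglia, the resident phagocytes, are rich in lysosomes and in several cathepsins, while neurons and astrocytes also use Ctsd, Ctsb and the Lamp proteins.

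Promoters of 9 members, all but Ctsb, were found in a RefSeq table of the rat genome (build GRCr8). The 250 bases before the start site were searched on both strands for CACGTG, the palindromic core of the CLEAR element bound by the lysosomal regulator TFEB, and for GAGGAAGT, the box bound by the myeloid factor PU.1. No copies of the motifs overlapped in these promoters. CACGTG occurred in 3 of the 9 member promoters, with 5 copies in Lamp1, 2 in Ctsd and 1 in Cd63, and in 5.59% of all 33469 promoters of the table. The Lamp1 promoter was the 1 promoter of that table with 5 or more copies. GAGGAAGT occurred in the promoter of Ctss, 17 bases before the start on the opposite strand, and in 2.04% of all promoters. These 4 sequences are shown because they hold either the most copies of a motif (Lamp1, Ctsd), the single PU.1 box (Ctss) or neither motif together with the largest difference between the ages described below (Ctsz). Each runs 5′ to 3′ towards the gene, and capitals mark the motif, in Ctss as its reverse complement.
Lamp1 (chr16:83075064-83075313, strand minus): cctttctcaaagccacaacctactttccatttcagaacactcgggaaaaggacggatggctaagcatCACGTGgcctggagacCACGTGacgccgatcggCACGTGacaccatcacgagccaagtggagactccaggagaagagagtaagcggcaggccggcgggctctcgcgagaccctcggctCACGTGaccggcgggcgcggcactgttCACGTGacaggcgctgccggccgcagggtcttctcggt
Ctsd (chr1:206968822-206969071, strand minus): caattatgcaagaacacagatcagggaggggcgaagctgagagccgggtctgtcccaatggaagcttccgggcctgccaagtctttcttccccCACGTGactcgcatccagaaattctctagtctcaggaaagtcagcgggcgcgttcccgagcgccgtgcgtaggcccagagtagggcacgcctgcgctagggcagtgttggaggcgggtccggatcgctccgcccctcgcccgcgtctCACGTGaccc
Ctss (chr2:185775146-185775395, strand plus): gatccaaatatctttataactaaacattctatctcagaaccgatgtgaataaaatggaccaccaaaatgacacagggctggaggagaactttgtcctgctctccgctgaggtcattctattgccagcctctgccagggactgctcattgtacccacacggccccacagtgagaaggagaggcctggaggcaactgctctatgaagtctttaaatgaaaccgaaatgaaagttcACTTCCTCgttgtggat
Ctsz (chr3:183653848-183654097, strand minus): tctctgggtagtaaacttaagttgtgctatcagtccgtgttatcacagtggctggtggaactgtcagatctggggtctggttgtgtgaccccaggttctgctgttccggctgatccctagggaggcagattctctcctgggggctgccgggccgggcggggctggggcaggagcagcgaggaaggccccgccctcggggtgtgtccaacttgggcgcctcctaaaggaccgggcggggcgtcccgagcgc
A match is a run of letters and was not measured as a bound site, and the start sites used for Lamp1, Cd63, Ctss and Lamp2 lie inside the annotated span of the gene, so that each stands for 1 transcript.

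Both aged groups were compared with the young, and with each other, in 1 linear model over 23 arrays (limma, 1 mean per group), and p-values were adjusted by Benjamini-Hochberg over the 14647 probe sets tested. A probe set was taken as changed where its adjusted p was 0.05 or lower. Levels are log2 values. Probe sets hybridise with different strength, so a level is compared between groups for 1 probe set and never between probe sets.

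In Aged Impaired rats 7 of the 12 tested member probe sets were higher than in Young rats and none was lower, where 3.88% of all tested probe sets were called higher and 5.88% lower. The 7 belonged to Ctsz, Ctsh, Ctss, Ctsd, Npc2, Lamp2 and Cd63. In Aged Unimpaired rats 4 of 12 were higher than in Young rats, those of Ctsz, Ctsh, Ctss and Npc2, where 1.37% of all tested probe sets were called higher and 0.696% lower. The differences of all 12 were above 0 in both comparisons, against 43.5% of all tested probe sets in Aged Impaired minus Young and 49.1% in Aged Unimpaired minus Young. The median difference of the members was 0.29 in Aged Impaired minus Young, against -0.02 over all tested probe sets. In Aged Unimpaired minus Young the median of the members was 0.23 and that of all tested probe sets was close to 0. The members, and the lists below, were chosen with earlier results of these data known. The shares over all probe sets set beside them are therefore a description and not a test. The comparisons share the Young rats, so their values are given side by side and were not set against each other. In tissue RNA, more cells of a type and more RNA per cell cannot be told apart, which applies to every value below.

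**Figure D1:**
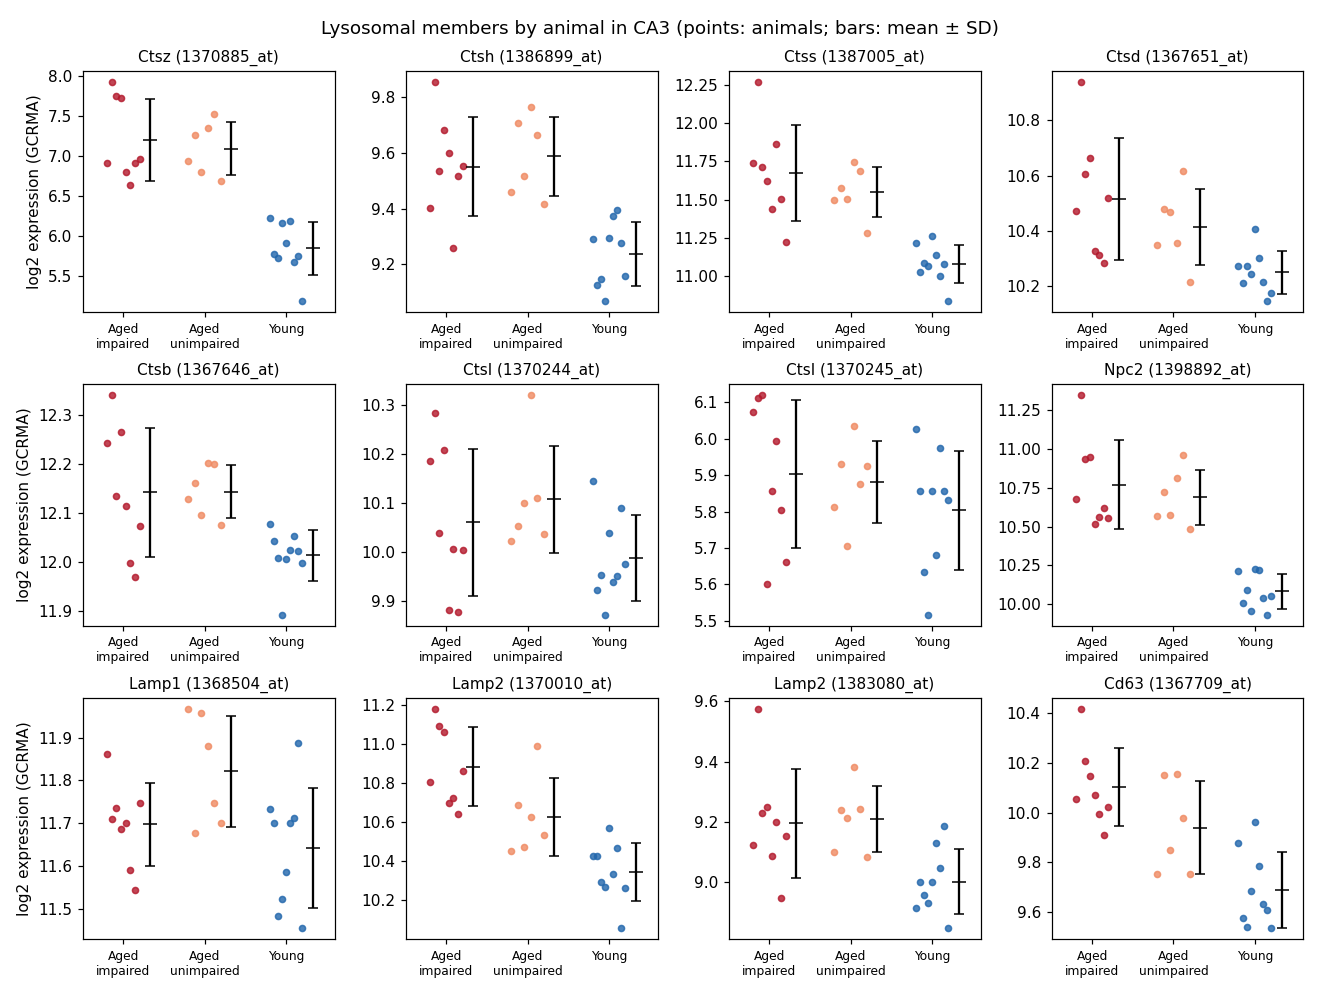
Log2 value of each tested member probe set (1 panel each) in every rat, with Aged Impaired, Aged Unimpaired and Young from left to right, points for animals and a bar for each group mean. Ctsz spans 6.63 to 7.93 in Aged Impaired rats, 6.69 to 7.52 in Aged Unimpaired rats and 5.18 to 6.23 in Young rats, while the Lamp1 and Ctsl groups lie over each other.

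Ctsz, a cysteine carboxypeptidase that trims single residues from the ends of proteins, differed most among the members. Its probe set (1370885_at) had log2 values of 6.63, 6.80, 6.91, 6.91, 6.96, 7.73, 7.74 and 7.93 in the 8 Aged Impaired rats. In Aged Unimpaired rats it ranged from 6.69 to 7.52 with a median of 7.10, and in Young rats from 5.18 to 6.23 with a median of 5.78. All 8 Aged Impaired rats and all 6 Aged Unimpaired rats lay above the highest Young rat, so neither aged group overlapped the young. Groups without overlap in the higher direction made up 0.594% of all tested probe sets for Aged Impaired against Young and 0.649% for Aged Unimpaired against Young. The level was 2.56-fold that of Young rats in Aged Impaired rats (log2 difference 1.36 ± 0.19, SE, limma adjusted p = 0.000205) and 2.38-fold in Aged Unimpaired rats (1.25 ± 0.20, limma adjusted p = 0.00229). Within the Aged Impaired group, 3 animals, replicates 2, 3 and 4, had values of at least 7.73, and the other 5 had at most 6.96.

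Ctss, a cysteine endopeptidase that stays active near neutral pH and trims the invariant chain of MHC class II molecules in antigen-presenting cells, ranged from 11.23 to 12.27 with a median of 11.67 in Aged Impaired rats. It ranged from 11.28 to 11.74 (median 11.54) in Aged Unimpaired rats and from 10.84 to 11.27 (median 11.08) in Young rats. Of the Aged Impaired rats 7 of 8 lay above every Young rat, and replicate 8 lay just below the highest of them, while all 6 Aged Unimpaired rats lay above. Ctss rose 1.50-fold in Aged Impaired rats (0.59 ± 0.10, SE, limma adjusted p = 0.00121) and 1.38-fold in Aged Unimpaired rats (0.47 ± 0.11, limma adjusted p = 0.0271) relative to Young rats. The second of these calls was lost when Aged Unimpaired replicate 2, 4 or 6 was left out, with differences of 0.46, 0.48 and 0.43 and limma adjusted p-values of 0.0515, 0.0513 and 0.0774. It was also lost with no filter on low values (limma adjusted p = 0.0786).

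Ctsh, an aminopeptidase with some endopeptidase activity, was measured by 1 probe set (1386899_at). It ranged from 9.26 to 9.86 (median 9.54) in Aged Impaired rats, from 9.42 to 9.76 (median 9.59) in Aged Unimpaired rats and from 9.07 to 9.40 (median 9.28) in Young rats. All 6 Aged Unimpaired rats and 7 of 8 Aged Impaired rats lay above the highest Young rat, and Aged Impaired replicate 6 lay inside the Young range. Relative to Young rats it rose 1.24-fold in Aged Impaired rats (0.31 ± 0.07, SE, limma adjusted p = 0.0082) and 1.28-fold in Aged Unimpaired rats (0.35 ± 0.08, limma adjusted p = 0.0162).

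Ctsd, the aspartic protease found in lysosomes of nearly all cells, whose promoter above holds 2 CACGTG copies, ranged from 10.28 to 10.94 (median 10.50) in Aged Impaired rats. The Aged Unimpaired range was 10.21 to 10.62 (median 10.41) and the Young range 10.15 to 10.40 (median 10.24). Only 5 of 8 Aged Impaired and 3 of 6 Aged Unimpaired rats lay above every Young rat, so the groups overlapped. Ctsd rose 1.20-fold in Aged Impaired rats (0.27 ± 0.07, SE, limma adjusted p = 0.0263), and the difference in Aged Unimpaired rats was 0.16 ± 0.08 (limma adjusted p = 0.303). The call in Aged Impaired rats was lost without Aged Impaired replicate 4 (0.24, limma adjusted p = 0.0509). It was also lost with the gap between a pair of control rows as a covariate (0.20, limma adjusted p = 0.0855). That gap, between rows named GAPDH 5′ and GAPDH M that both followed beta-actin (Actb) across the arrays, averaged 2.14 ± 0.09 in Aged Impaired rats, 2.28 ± 0.09 in Aged Unimpaired rats and 2.22 ± 0.10 in Young rats (SD, n = 8, 6 and 9), and its part in the result was not tested.

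Ctsb and Ctsl did not pass the test in either aged group. Ctsb, a cysteine protease that also removes dipeptides from protein ends, ranged from 11.97 to 12.34 (median 12.12) in Aged Impaired rats, from 12.07 to 12.20 (median 12.14) in Aged Unimpaired rats and from 11.89 to 12.08 (median 12.02) in Young rats. Its differences from Young rats were 0.13 ± 0.04 in Aged Impaired rats (SE, limma adjusted p = 0.0675) and 0.13 ± 0.05 in Aged Unimpaired rats (limma adjusted p = 0.165), and 5 of 8 and 5 of 6 aged animals lay above every Young rat. Without Aged Impaired replicate 6 or 7 the first of these passed, with differences of 0.15 and 0.15 and limma adjusted p-values of 0.0366 and 0.029. Ctsl, a cysteine endopeptidase, has 2 probe sets. The brighter (1370244_at) differed from Young by 0.07 ± 0.06 in Aged Impaired and 0.12 ± 0.06 in Aged Unimpaired rats, and the dimmer (1370245_at) by 0.10 ± 0.08 and 0.08 ± 0.09 (SE, limma adjusted p from 0.333 to 0.70 over the 4 differences). The largest rise that the 95% intervals of the Ctsl differences allow is 1.20-fold.

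**Figure D2:**
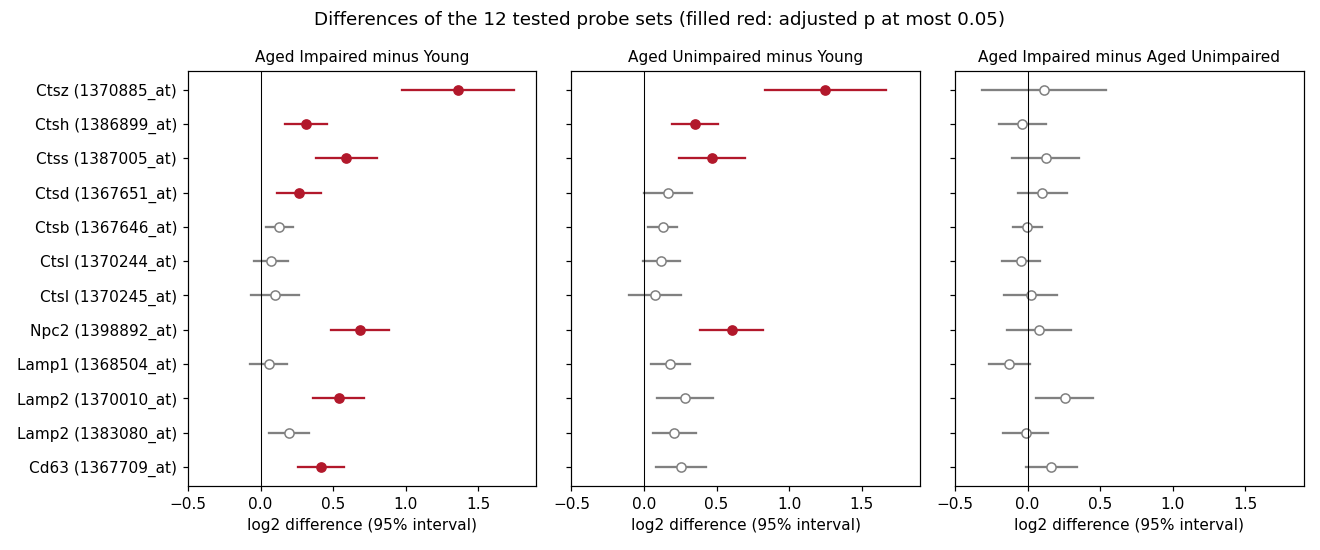
Log2 difference of each tested member probe set with its 95% confidence interval, for Aged Impaired minus Young, Aged Unimpaired minus Young and Aged Impaired minus Aged Unimpaired. Ctsz stands out at 1.36 and 1.25 in the comparisons with Young rats, and the Aged Impaired minus Aged Unimpaired differences lie between -0.12 and 0.26.

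Npc2, which binds cholesterol inside the lysosome, rose in both aged groups. Its log2 values ranged from 10.51 to 11.34 (median 10.65) in Aged Impaired rats, from 10.49 to 10.96 (median 10.65) in Aged Unimpaired rats and from 9.93 to 10.23 (median 10.06) in Young rats. Neither aged group overlapped the young. The level was 1.61-fold that of Young rats in Aged Impaired rats (0.68 ± 0.10, SE, limma adjusted p = 0.000266) and 1.52-fold in Aged Unimpaired rats (0.60 ± 0.10, limma adjusted p = 0.00399).

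Among the membrane proteins, Lamp2, one of whose isoforms is the receptor of chaperone-mediated autophagy, has 2 tested probe sets that differed in their calls. The first (1370010_at) ranged from 10.64 to 11.18 (median 10.83) in Aged Impaired rats, from 10.45 to 10.99 (median 10.58) in Aged Unimpaired rats and from 10.06 to 10.57 (median 10.34) in Young rats. All 8 Aged Impaired rats lay above every Young rat, against 3 of 6 Aged Unimpaired rats. It rose 1.45-fold in Aged Impaired rats (0.54 ± 0.09, SE, limma adjusted p = 0.000737), and the difference in Aged Unimpaired rats was 0.28 ± 0.09 (limma adjusted p = 0.116). The second probe set (1383080_at) ranged from 8.95 to 9.58 in Aged Impaired rats, from 9.08 to 9.38 in Aged Unimpaired rats and from 8.85 to 9.19 in Young rats. It differed from Young rats by 0.19 ± 0.07 (limma adjusted p = 0.063) in Aged Impaired and 0.21 ± 0.07 (limma adjusted p = 0.132) in Aged Unimpaired rats. Without Aged Impaired replicate 7 or Young replicate 8 the Aged Impaired difference of this probe set passed, at 0.23 and 0.22 with limma adjusted p-values of 0.0289 and 0.0477. Across the 23 rats, after removing group means, the Lamp2 probe sets correlated with r = 0.45. Both were read from the same array of each rat, so this r is a description. The median for 2021 genes with several tested probe sets was 0.24.

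Cd63, a tetraspanin of late endosomes, lysosomes and exosomes, ranged from 9.91 to 10.42 (median 10.06) in Aged Impaired rats, from 9.75 to 10.16 (median 9.91) in Aged Unimpaired rats and from 9.54 to 9.96 (median 9.63) in Young rats. Of the Aged Impaired rats 7 of 8 lay above every Young rat, and of the Aged Unimpaired rats 3 of 6. It rose 1.33-fold in Aged Impaired rats (0.42 ± 0.08, SE, limma adjusted p = 0.00222), while the Aged Unimpaired difference was 0.25 ± 0.08 (limma adjusted p = 0.117). Lamp1, with its 5 CACGTG copies, ranged from 11.54 to 11.86 (median 11.71) in Aged Impaired rats, from 11.68 to 11.97 (median 11.81) in Aged Unimpaired rats and from 11.45 to 11.89 (median 11.70) in Young rats at the 1 probe set above the floor (1368504_at). No Aged Impaired rat and 2 of 6 Aged Unimpaired rats lay above the highest Young rat. Its differences from Young were 0.06 ± 0.06 in Aged Impaired (95% interval -0.07 to 0.18, limma adjusted p = 0.593) and 0.18 ± 0.06 in Aged Unimpaired rats (0.05 to 0.31, limma adjusted p = 0.152).

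Between the aged groups no member probe set passed the test, where 0.778% of all tested probe sets were called. At an unadjusted p of at most 0.05 there was 1 member, the first Lamp2 probe set, where 15.2% of all tested probe sets were. It was higher in Aged Impaired rats by 0.26 ± 0.10 (SE, limma adjusted p = 0.185), and 3 of 8 Aged Impaired rats lay above every Aged Unimpaired rat. Leaving out Aged Unimpaired replicate 7, the highest of its group for this probe set, brought that difference to 0.33 with a limma adjusted p of 0.0484. The same omission raised the calls over all tested probe sets from 114 to 447. The second Lamp2 probe set differed by -0.01 ± 0.07 between the aged groups (SE, all animals, limma adjusted p = 0.962). For the members with the largest differences from Young, the intervals between aged groups bound what could have been missed. Ctsz differed by 0.11 (95% interval -0.32 to 0.54), Ctss by 0.12 (-0.11 to 0.36) and Npc2 by 0.08 (-0.14 to 0.30). Over the 12 probe sets 7 differences were above 0 and 5 below, with a median of 0.05, against 40.7% above 0 and a median of -0.02 over all tested probe sets.

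Animals of a group differed across many members at once. Aged Impaired replicate 2 was the highest of its group on 10 of the 12 probe sets, and replicate 7 the lowest on 7. Among Aged Unimpaired rats, replicate 6 was highest on 7 probe sets and replicate 8 lowest on 8. Without Aged Impaired replicate 2, 7 of 12 probe sets were called in Aged Impaired minus Young, and the Ctsz difference was 1.25. After removal of group means, 43 of the 45 pairs of members had r above 0 over the 23 rats, with a median of 0.62, where random pairs of tested probe sets had a median of 0.05. All members of a rat were read from the same array and dissection, so these are values of tissue samples and not of cells.

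**Figure D3:**
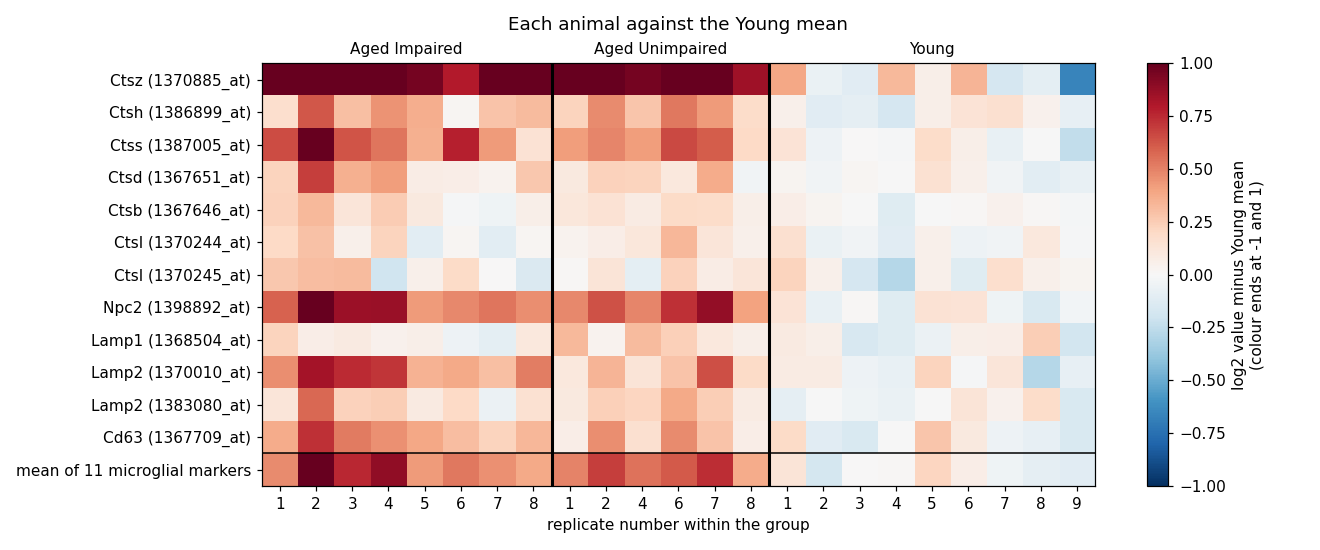
Each tested member probe set (rows) in each rat (columns, Aged Impaired, then Aged Unimpaired, then Young), as log2 difference from the Young mean of that probe set. Aged Impaired replicate 2 is the highest of its group on 10 of 12 probe sets and Aged Unimpaired replicate 8 the lowest of its group on 8.

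A family of 55 relations was tested, 45 pairs of members and 10 of a member with the microglial marker level below. Of the pairs, 33 had a permutation p within groups that passed a Benjamini-Hochberg adjustment over the 55. By rank, 30 of them passed too. The share of random pairs of genes that would pass was not computed. Npc2 and Ctsd were among the closest, with Pearson's r = 0.88 and Spearman's rho = 0.81 (2-sided permutation p = 3e-05 and 9e-05, adjusted 0.00024 and 0.00079). Their r was 0.80 without the 2 rats farthest from the median of Ctsd and 0.75 without the 2 farthest from that of Npc2. The correlation held in each group, with r of 0.93 among Aged Impaired rats, 0.74 among Aged Unimpaired rats and 0.79 among Young rats. Ctsz and Ctsb had r of 0.71 among Aged Impaired and 0.98 among Aged Unimpaired rats against -0.07 among Young rats, and the difference between groups was not tested. None of the 9 pairs that include Lamp1 passed. Their r ranged from -0.11 with Lamp2 to 0.39 with Ctsl, and that with Ctsb was 0.38 (2-sided permutation p = 0.045, adjusted 0.057), with 0.63 among Aged Impaired rats.

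Genes most like each member over the 23 rats were ranked by r after removal of group means, over 8726 genes. Npc2 was most like Rnaset2 (r = 0.93), a lysosomal ribonuclease, and Anxa3 (r = 0.93), a calcium-dependent membrane-binding protein. Ctsz was most like Fcer1g (r = 0.84), a signalling adaptor of immune receptors, and Tmem176b (r = 0.84). Ctsd was most like Rnaset2 (r = 0.83) and C1qb (r = 0.81), a chain of the first complement component, and Ctsb was most like Naca (r = 0.90) and Psat1 (r = 0.89), a serine synthesis enzyme. Lamp1 was most like Tbcel (r = 0.89) and Cd63 most like Psme1 (r = 0.82), an activator subunit of the proteasome. Ctss was most like Timp2 (r = 0.83), Ctsh most like Vim (r = 0.80), Ctsl most like Slc35a5 (r = 0.87) and Lamp2 most like Erbin (r = 0.81).

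Microglial markers, as a list, were higher in both aged groups. Of 17 microglial markers 16 were on the array and 11 were tested. Relative to Young rats 8 of the 11 rose in Aged Impaired and 6 in Aged Unimpaired rats, where 3.88% and 1.37% of all tested probe sets were called higher. The mean level of the 11 ranged from 7.33 to 8.01 in Aged Impaired rats, from 7.32 to 7.69 in Aged Unimpaired rats and from 6.78 to 7.18 in Young rats, so that all 8 and all 6 aged rats lay above every Young rat. The listed markers Itgam, Cx3cr1, Fcgr3a, Ptprc and Irf8 were below the filter. Tmem119 was tested and not called, at 0.24 ± 0.13 in Aged Impaired (SE, limma adjusted p = 0.262) and 0.32 ± 0.14 in Aged Unimpaired rats (limma adjusted p = 0.257). Aif1, a microglial actin-binding protein, rose 2.10-fold in Aged Impaired (1.07 ± 0.12, SE, limma adjusted p = 1.7e-05) and 1.81-fold in Aged Unimpaired rats (0.85 ± 0.13, limma adjusted p = 0.00146), and the purine receptor P2ry12 rose 1.64-fold and 1.63-fold in the same comparisons (limma adjusted p = 0.000285 and 0.00183). None of the 11 passed between the aged groups (limma, 0 at adjusted p of at most 0.05).

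**Figure D4:**
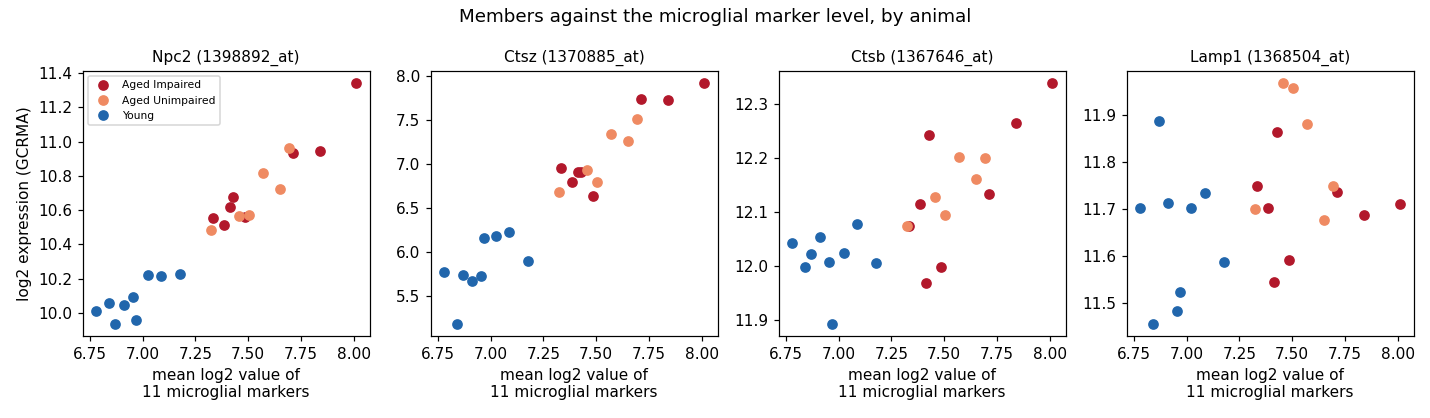
Log2 value of Npc2, Ctsz, Ctsb and Lamp1 (vertical axes, 1 panel each) against the mean log2 level of 11 microglial markers (horizontal axes), 1 point per rat, coloured by group. Within groups, r is 0.92 for Npc2 and -0.05 for Lamp1 over 23 rats.

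After removal of group means, the microglial level correlated with 9 of the 10 members past the adjustment over the 55 relations. The share of all tested genes that would pass was not computed, so this count does not set the members apart. The closest was Npc2, with r = 0.92 and rho = 0.88 (2-sided permutation p = 1e-05 and 2e-05, adjusted 0.00018 and 0.00022), and r was 0.87 without the 2 rats farthest from the median of Npc2. Next came Ctsd with r = 0.86, Ctsz with r = 0.83 and Cd63 with r = 0.80. The weakest of the 9 were Ctsh (r = 0.64), Ctsb (0.62) and Ctsl (0.60). Without the 2 rats farthest from the median microglial level these were 0.46, 0.36 and 0.39. They did not hold alike in each group, with 0.01 for Ctsb among Young rats and 0.32 for Ctsl among Aged Unimpaired rats. Lamp1 was the exception, with r = -0.05 and rho = -0.01 (permutation p = 0.81 and 0.98). The 3 Aged Impaired rats of highest microglial level, replicates 2, 3 and 4, were the 3 highest on 6 of the 12 member probe sets, those of Ctsz, Ctsd, Npc2, Cd63 and both of Lamp2. The part of microglial number or state in the member differences was not tested.

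Other cell types were read from their own markers. None of 7 markers of perivascular macrophages and monocytes passed the filter on low values. Of 10 tested astrocyte markers 3 rose in Aged Impaired and 2 in Aged Unimpaired rats, where 3.88% and 1.37% of all tested probe sets were called higher. Differences of the 10 from Young rats ran from -0.17 to 0.62 in Aged Impaired and from -0.09 to 0.53 in Aged Unimpaired rats. Gfap, the astrocyte intermediate filament, had the largest rises, at 1.54-fold and 1.45-fold that of Young rats (limma adjusted p = 0.0007 and 0.00955). Of 8 tested CA3 neuron markers 5 fell and 1 rose in Aged Impaired rats, where 5.88% of all tested probe sets were called lower and 3.88% higher. Differences of the 8 ran from -0.30 to 0.36 there, and Nrip3 fell by 0.30 ± 0.06 (SE, limma adjusted p = 0.00336). None of the 8 passed in Aged Unimpaired rats. Of 7 general neuronal markers, all tested, 1 fell in each aged group. Nefl, the light neurofilament chain, fell by 0.15 ± 0.05 in Aged Impaired rats (SE, limma adjusted p = 0.0376), and Slc17a7, a vesicular glutamate transporter, fell by 0.45 ± 0.09 in Aged Unimpaired rats (SE, limma adjusted p = 0.0111). The mean level of the 8 CA3 markers lay between 9.43 and 9.87 in Aged Impaired rats, 9.57 and 9.73 in Aged Unimpaired rats and 9.69 and 9.87 in Young rats, and the ninth, Iyd, was below the filter. With no other hippocampal field at hand, these levels do not test the dissection. Oligodendrocyte markers (8 tested) and endothelial and pericyte markers (5 tested) had no call in any comparison. Nor had the 1 tested marker of choroid plexus and the 1 of blood, though both varied widely among animals. The choroid plexus marker ranged from 5.04 to 7.98 in Aged Impaired, 4.62 to 6.56 in Aged Unimpaired and 5.31 to 7.73 in Young rats. For the blood marker the ranges were 9.98 to 11.64, 9.44 to 11.11 and 10.42 to 11.05.

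Other lysosomal genes and inhibitors of cathepsins were read from lists of proteases, inhibitors, hydrolases, lipid carriers, membrane proteins, the proton pump and sorting factors. Of 133 listed genes that are not members, 116 were on the array and 97 were tested. Each gene counts once, by its brightest tested probe set, while the shares given beside them are over every tested probe set. In Aged Impaired rats 11 (11.3%) rose and 5 (5.15%) fell relative to Young rats, where 3.88% of all tested probe sets rose and 5.88% fell, so that the share that fell was near that of all probe sets. In Aged Unimpaired rats 6 (6.19%) rose and none fell, where 1.37% rose and 0.696% fell. The inhibitors gave 2 of the rises in each aged group and 1 of the falls in Aged Impaired rats. Median differences were -0.01 and 0.01, close to those of all tested probe sets. None passed between the aged groups.

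**Figure D5:**
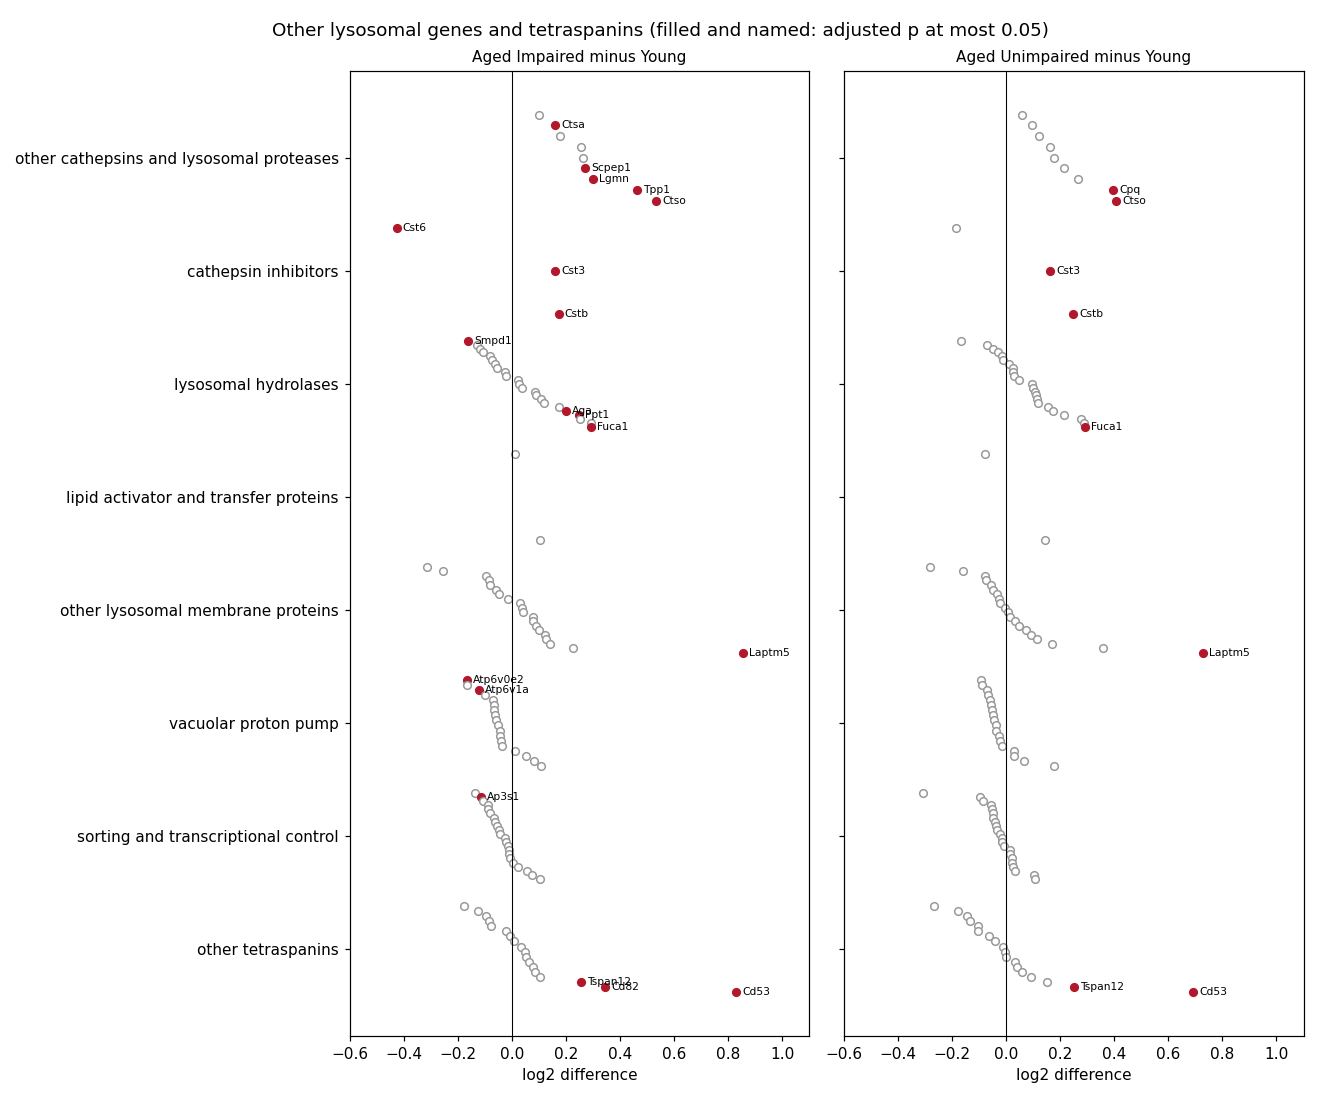
Log2 differences of the other lysosomal genes, cathepsin inhibitors and tetraspanins are shown by list. Aged Impaired minus Young is on the left and Aged Unimpaired minus Young on the right, with called genes filled and named. Laptm5 (0.86 and 0.73) and Cd53 (0.83 and 0.69) lie farthest to the right, and most of the proton pump and sorting genes lie near 0.

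Of 9 other lysosomal proteases tested, 5 rose in Aged Impaired and 2 in Aged Unimpaired rats, where 3.88% and 1.37% of all tested probe sets were called higher. Ctso, a little-studied cysteine cathepsin, rose 1.45-fold in Aged Impaired (0.53 ± 0.10, SE, limma adjusted p = 0.00171) and 1.33-fold in Aged Unimpaired rats (0.41 ± 0.10, limma adjusted p = 0.0416). Tpp1, a tripeptidyl peptidase whose loss causes a human lysosomal storage disease, rose 1.38-fold in Aged Impaired rats (0.46 ± 0.11, limma adjusted p = 0.0102), with an Aged Unimpaired difference of 0.06 ± 0.12. Lgmn, the asparaginyl endopeptidase that processes several cathepsins, rose 1.23-fold in Aged Impaired rats (limma adjusted p = 0.00796), and Scpep1, a serine carboxypeptidase, 1.21-fold (limma adjusted p = 0.0335). The fifth in Aged Impaired rats was Ctsa at 1.12-fold, and the other in Aged Unimpaired rats was Cpq at 1.31-fold, both named after their values were seen.

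Of 3 tested inhibitors of cathepsins, 2 rose in both aged groups and 1 fell in Aged Impaired rats. Over all tested probe sets 3.88% were called higher and 5.88% lower in Aged Impaired rats, and 1.37% higher in Aged Unimpaired rats. Cystatin C (Cst3), a secreted inhibitor, rose 1.12-fold in both Aged Impaired (0.16 ± 0.04, SE, limma adjusted p = 0.00876) and Aged Unimpaired rats (0.16 ± 0.04, limma adjusted p = 0.0301). Cstb, the intracellular inhibitor stefin B, rose 1.13-fold and 1.19-fold (limma adjusted p = 0.0357 and 0.0224), with all 6 Aged Unimpaired rats above every Young rat. Cst6, a further secreted inhibitor, fell by 0.43 ± 0.11 in Aged Impaired rats (limma adjusted p = 0.0227).

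Among 23 tested hydrolases, 3 rose and 1 fell in Aged Impaired rats and 1 rose in Aged Unimpaired rats. Over all tested probe sets 3.88% were called higher and 5.88% lower in Aged Impaired rats, and 1.37% higher in Aged Unimpaired rats. Fuca1, the alpha-fucosidase, rose 1.23-fold in Aged Impaired and 1.22-fold in Aged Unimpaired rats (limma adjusted p = 0.00645 and 0.0264), and neither aged group overlapped the young. The palmitoyl-protein thioesterase Ppt1 rose 1.19-fold and Aga, which cleaves sugar-asparagine bonds, 1.15-fold in Aged Impaired rats (limma adjusted p = 0.0247 and 0.0104). Smpd1, the acid sphingomyelinase, fell by 0.16 ± 0.05 there (limma adjusted p = 0.0397).

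Of 20 other lysosomal membrane proteins 1 passed, in both aged groups, where 3.88% and 1.37% of all tested probe sets were called higher. Laptm5, a lysosomal transmembrane protein of immune cells, rose 1.81-fold in Aged Impaired (0.86 ± 0.14, SE, limma adjusted p = 0.00111) and 1.66-fold in Aged Unimpaired rats (0.73 ± 0.16, limma adjusted p = 0.0162), and its second probe set rose too (1.08 and 0.94). Of 18 subunits of the proton pump none rose and 2 fell in Aged Impaired rats, Atp6v0e2 by 0.17 ± 0.04 (limma adjusted p = 0.019) and Atp6v1a by 0.12 ± 0.04 (limma adjusted p = 0.0339). A second probe set of Atp6v1a differed by 0.02 and was not called. Of 22 sorting and regulatory genes 1 passed, Ap3s1, a subunit of an adaptor that sorts cargo to lysosomes, which fell by 0.11 ± 0.03 in Aged Impaired rats (limma adjusted p = 0.0311), and its second probe set was not called (-0.10). With 5.88% of all tested probe sets called lower in that comparison, 2 of 18 and 1 of 22 are counts too small to set these lists apart.

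Relatives of Cd63 were set beside it. Of 18 tested tetraspanins 3 rose in Aged Impaired and 2 in Aged Unimpaired rats, where 3.88% and 1.37% of all tested probe sets were called higher. Cd53, a tetraspanin of leukocytes, rose 1.78-fold and 1.61-fold (limma adjusted p = 0.00131 and 0.0217) with no overlap with Young rats in either. Tspan12 rose 1.19-fold in both (limma adjusted p = 0.00862 and 0.0348), and Cd82 1.27-fold in Aged Impaired rats (limma adjusted p = 0.0114).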

How the data were processed

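The deposited values are log2 expression per probe set, normalised by the authors with GCRMA, per the submitters' processing notes. No version or option of GCRMA is named (not given in the sources used here). GCRMA normalises arrays to each other at the level of probes and pushes dim probe sets to a floor, so a difference near the floor is compressed. Values ran from 2.195 to 14.848, no 2 arrays were identical (0 pairs), and arrays give no read depth, so that their number limits the precision.

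Control probe sets, 57 in number, were dropped. Of the other 31042, 20826 had 1 gene symbol in the platform annotation, 436 several and 9780 none, and 20758 of those with 1 were matched to the current rat table (GRCr8) with 0 symbols changed. Names of some control rows were out of register with their values. A gap between the row named GAPDH 5′ and that named GAPDH M was therefore used for 1 reason only. Both rows followed an Actb probe set across arrays (highest r with any Actb probe set, 0.93 and 0.90).

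Tests covered probe sets that reached a log2 value of 4 on 6 or more arrays, with limma 3.58.1 in R 4.3.3 (lmFit and eBayes, 20 residual and 2.35 prior degrees of freedom), 14647 in all. The fit was tested on simulated data. Benjamini-Hochberg adjustment ran over all tested probe sets of a comparison. Correlations used residuals from group means and 100000 permutations within groups (Python 3.11.15, numpy 2.4.6). All members are named. Genes of the lysosomal and tetraspanin lists are named by the 4 largest called differences of a list in Aged Impaired minus Young. Each is given by its brightest tested probe set. Cell type markers are named as examples and not by this rule. The members and lists were chosen with earlier results of these data known. Replicates are separate animals per the labels. Same-numbered animals of different groups correlated with a median r of -0.01 over 20 pairs (2 above 0.1), so the numbers were not taken as pairs. Alternatives covered the filter, a floor, scaling, array weights, the samples in the fit, the spread estimate, the replicate number, single animals left out and, added after seeing the data, the control row gap.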

Additional observations from a re-analysis of the deposited data

Results flagged for a closer look

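In 36 groups of a member probe set with any spread, 2 animals lay far from the rest of their group by Dixon's ratio, and chance would mark about 1 in 20 groups. Ctsb in Young replicate 4 was low, at 11.8919 on the log2 scale, with 11.9969 in the next animal. Ctsl (1370244_at) in Aged Unimpaired replicate 6 was high, at 10.3192, with 10.1111 in the next. Without that animal the Ctsl difference of Aged Unimpaired minus Young was 0.08 (limma adjusted p = 0.606), and without Young replicate 4 the Ctsb difference of Aged Unimpaired minus Young was 0.11 (limma adjusted p = 0.238).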

How the results depend on the processing

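Of 357 values of single member probe sets under other settings with all animals, 347 kept their side of the threshold, 6 lost a call, 4 gained one and 0 called values changed sign. Of 552 values with 1 animal left out, 543 kept their side, 4 lost a call and 5 gained one. Members called numbered 6 to 9 of 12 in Aged Impaired minus Young with 1 animal left out, 3 to 4 in Aged Unimpaired minus Young, and 0 to 1 in Aged Impaired minus Aged Unimpaired. Over all tested probe sets the 3 counts (1429, 302 and 114) ranged from 1017 to 1808, from 175 to 382 and from 2 to 447 with 1 animal left out. Without Aged Unimpaired replicate 4 they fell to 175 and 2 in the comparisons that use it, and without replicate 7 the third was 447. With no filter they were 768, 126 and 2. Median centring gave 2352 in the first, of which 486 were higher, against 568 of 1429, and 117 in the third, of which 85 were higher, against 99 of 114. Array weights gave 672 in the second and 222 in the third. Quantile normalization gave 180 in the third, and a fit of only the compared groups gave 0. The control row gap as a covariate gave 937 in the first and 0 in the third. The replicate number as a replicate block gave 870, 86 and 0, with 6, 2 and 0 members, and Ctss and Ctsh were lost in Aged Unimpaired minus Young (limma adjusted p = 0.0876 and 0.107). Ctsd was lost in Aged Impaired minus Young under the block (0.0724) and with no filter (0.0626), which also ended the Ctss call in Aged Unimpaired minus Young (0.0786). Quantile normalization added Ctsb in both comparisons with Young (0.0105 and 0.0494) and the second Lamp2 probe set in the first (0.0293), as did array weights (0.0461). The cause of these changes was not tested.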
